A study of Mus musculus with 44 samples.

Results

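DNA replication and S phase genes were followed in mice given 2-butoxyethanol (2BE), a glycol ether solvent whose metabolite lyses red blood cells in rodents. The group held 46 genes chosen by function: origin licensing and firing, the polymerases and primase, the sliding clamp, its loader and the single-strand binding protein, Okazaki fragment joining, deoxynucleotide supply, S phase entry and chromatin assembly. Of these, 45 were measured among the 18193 genes of the arrays, each through 1 probe set: among those annotated with its symbol alone, the one brightest on average over the 44 arrays. Chaf1a had no such probe set here and was not analysed.

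The animals were B6C3F1 mice, a hybrid laboratory strain, and the 44 Affymetrix arrays fell into 10 groups. Liver and spleen were taken at 4 h, from 4 2BE and 3 vehicle arrays in liver and 4 2BE and 4 vehicle arrays in spleen. Liver, bone marrow and spleen were taken at 7 d, with 5 2BE and 4 vehicle arrays of liver, 5 2BE and 5 vehicle arrays of marrow, and 5 2BE and 5 vehicle arrays of spleen. Arms are named here by the sample titles (2BE or vehicle), since a separate treatment label gives reduced oxygen for the 2BE samples and control for the vehicle samples. The liver came from the left lateral lobe, the marrow from the right humerus and the spleen from a cross-section, all under ketamine and acepromazine anaesthesia. Dose, route, sex and age are not given in the sources used here. They do not say whether arrays of 1 group came from separate animals, so the p-values measure the spread between these samples.

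Replication begins when the origin recognition complex, Cdc6 and Cdt1 load the Mcm2 to Mcm7 helicase on DNA, and it fires when the Cdc7 and Dbf4 kinase and cyclin-dependent kinases allow Cdc45 and the GINS complex to join that helicase. Primase with polymerase alpha starts each strand, polymerase epsilon extends the leading strand and polymerase delta the lagging strand, both held on DNA by the Pcna clamp. Cyclin E and the E2F transcription factors switch this gene set on as a cell enters S phase. In adult mice the bone marrow divides steadily, the spleen red pulp can make red blood cells when demand rises, and hepatocytes are mostly quiescent.

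The liver arrays matched their label: Alb and Apoa1 ranked at the 100th percentile of each liver array. Mpo, a marker of neutrophils and their precursors, ranked at percentile 99.7 to 99.8 in vehicle marrow. It ranked at 80.7 to 99.5 in vehicle spleens at 4 h and at 65 to 73.2 in vehicle spleens at 7 d. Replicates correlated at 0.983 to 0.998 over the 45037 probe sets that were not controls. Intensities are values of the robust multi-array average (RMA) on a linear scale, and differences are 2BE minus vehicle on log2(intensity + 1), which understates the change of dim genes. Array medians differed between the 5 tissue and time sets, from 41.2 to 42.5 in the liver at 4 h up to 109 to 112 in the spleen at 7 d, so levels were compared only within a set. A call needed a limma p-value under 0.05 after Benjamini-Hochberg adjustment over all 18193 genes, and the number of arrays limits the precision. Vehicle replicate 1 of the spleen at 7 d stood apart. Its 45 replication genes averaged 8.78 on the log2 scale, against 9.08 to 9.26 in the other vehicle arrays, and its 15 erythroid markers averaged 8.75, against 10.03 to 10.36. Results that rest on it are given with and without it.

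The spleen at 7 d held the large change. All 45 genes rose with 2BE (32.4% of all genes rose there), with all 5 2BE arrays above all 5 vehicle arrays for each gene (20% of all genes). The median log2 difference was 1.61 over the 45 genes and 0.05 over all genes tested. In the bone marrow at 7 d 30 genes rose and 1 fell (9.4% and 10.7% of all genes), with a median of 0.23 over the 45 genes. The spleen at 4 h had 0 calls in limma (5.16% of all genes were called), and 1 gene had an unadjusted p under 0.05. In the liver at 4 h 1 rose and 2 fell (3.24% and 1.27% of all genes), and in the liver at 7 d 1 rose and 0 fell (0.506% and 0.242%). In bulk tissue, fewer cells of a type and less RNA per cell cannot be told apart.

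**Figure D1:**
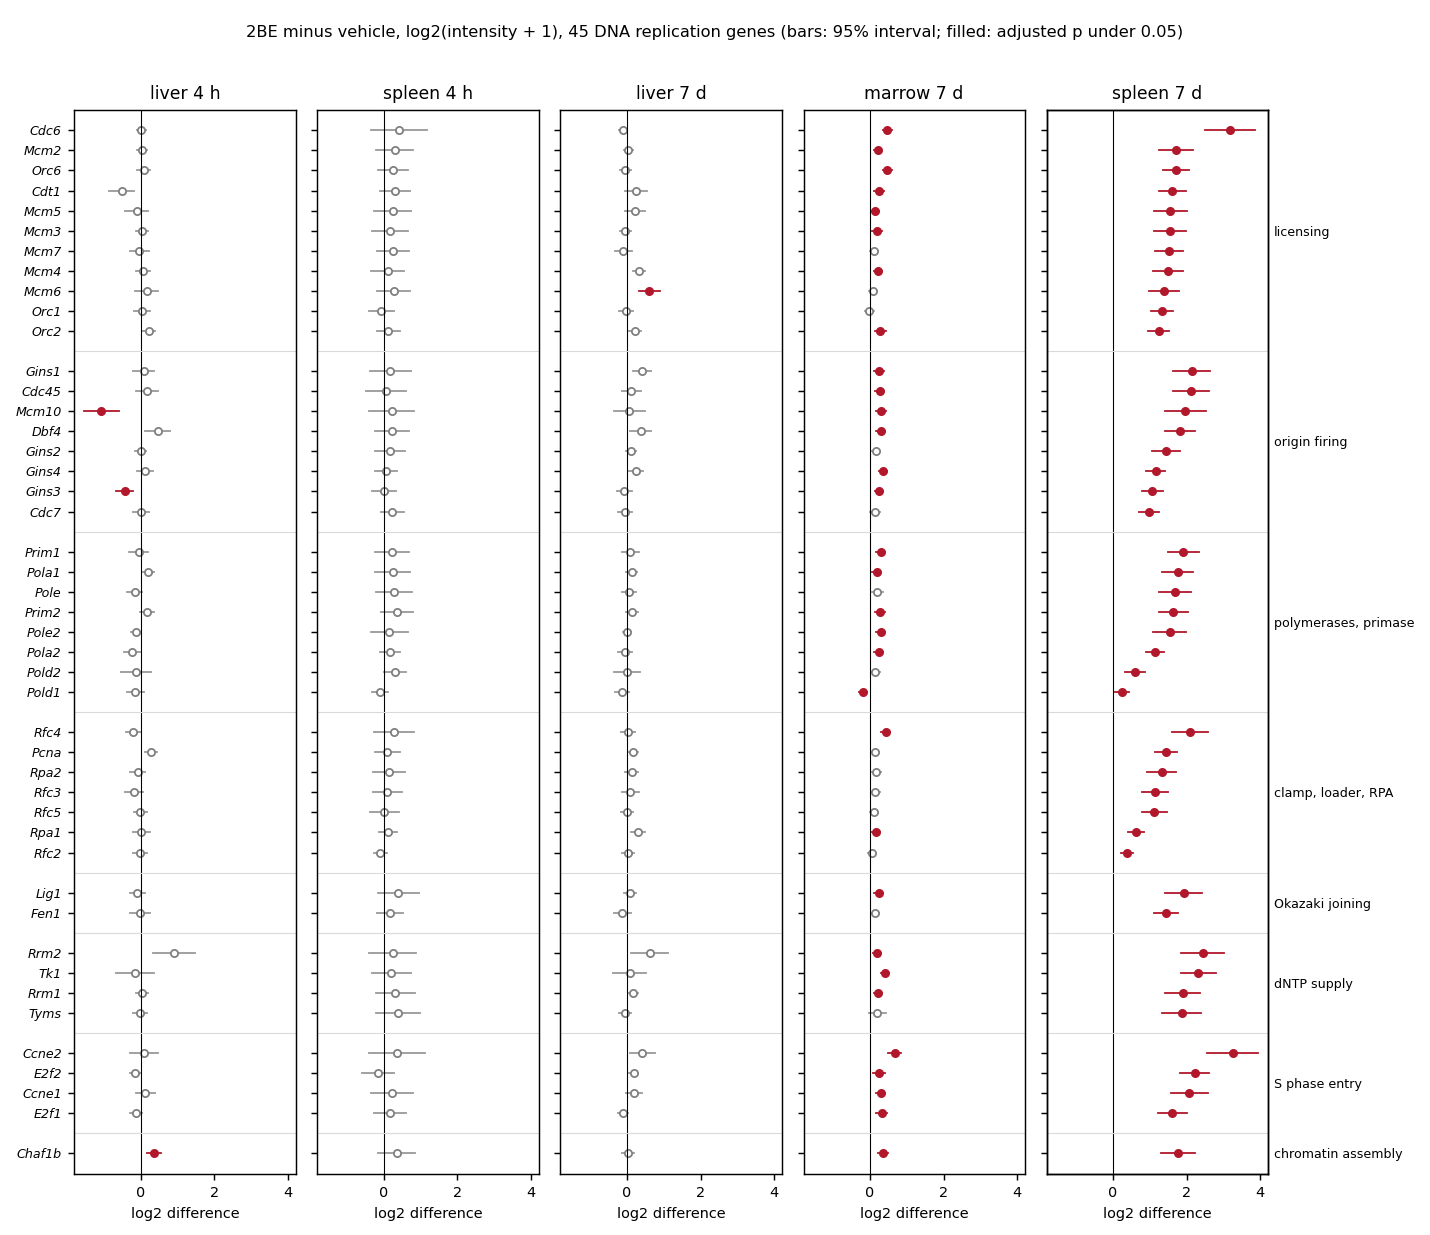
Differences in log2(intensity + 1), 2BE minus vehicle, with 95% intervals for 45 replication genes grouped by role (rows) in 5 tissue and time sets (panels). Filled points have an adjusted p under 0.05: all 45 in the spleen at 7 d, 31 in the marrow, 3 in the liver at 4 h, 1 in the liver at 7 d and 0 in the spleen at 4 h.

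The 45 genes were also averaged on each array. In the spleen at 7 d the 2BE arrays averaged 10.83, 10.75, 10.54, 10.72 and 10.59 on the log2 scale, against 8.78, 9.18, 9.08, 9.26 and 9.09 in the vehicle arrays. The arms lay apart by more than the range within either arm. In the marrow the 2BE arrays ran from 10.48 to 10.62 and the vehicle arrays from 10.23 to 10.36, also without overlap. The liver arms at 7 d lay apart too, 6.72 to 6.79 in 2BE arrays and 6.61 to 6.69 in vehicle arrays. At 4 h the liver arms overlapped (6.12 to 6.25 in 2BE arrays, 6.15 to 6.24 in vehicle arrays). Both arms covered nearly the same wide range in the spleen at 4 h, 9.08 to 10.01 in 2BE and 9.02 to 10.01 in vehicle arrays. Ranked among the 45037 probe sets of its own array, the median replication gene stood at percentile 92.4 to 93.9 in 2BE spleens at 7 d and at 76.3 to 82.2 in vehicle spleens. In marrow it stood at 92.4 to 93.0 with 2BE and at 91.4 to 92.6 with vehicle.

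**Figure D2:**
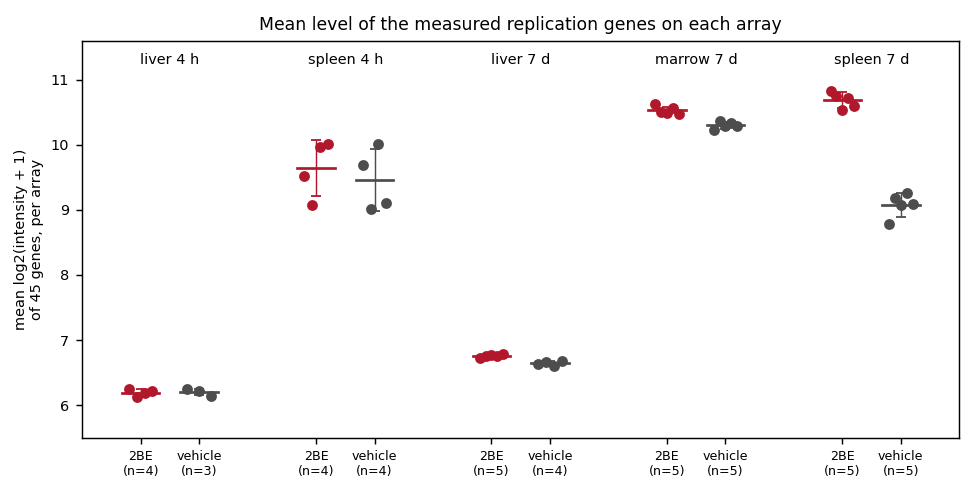
Mean log2(intensity + 1) of the 45 measured replication genes on each array (points), with the mean and SD of each arm (lines and bars). The arms do not overlap in the spleen at 7 d (2BE 10.54 to 10.83, vehicle 8.78 to 9.26), nor in the marrow and liver at 7 d. They overlap in the liver at 4 h and widely in the spleen at 4 h.

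Among the licensing genes of the spleen at 7 d, all 11 rose, with a median log2 difference of 1.55. Cdc6, the loader that opens the way for the helicase, read 3995, 3653, 2999, 3636 and 2940 in 2BE spleens, against 215, 431, 401, 532 and 399 in vehicle spleens. The lowest 2BE array was far above the highest vehicle array. Cdc6 was 8.98-fold higher (log2 difference 3.17, SE 0.32, limma adjusted p = 2.1e-07), and the log2 difference was 2.96 without vehicle replicate 1. Mcm2, a subunit of the helicase itself, read 4046, 3603, 3254, 3553 and 3285 in 2BE spleens, against 835, 1277, 1045, 1251 and 1034 in vehicle spleens. Its arms also lay apart (log2 difference 1.72, SE 0.22). The 6 helicase subunits Mcm2 to Mcm7 changed by similar amounts, from 1.38 for Mcm6 to 1.72 for Mcm2, each with an SE of 0.18 to 0.22. Cdt1, the partner of Cdc6 in loading, differed by 1.61 (SE 0.18). The origin recognition subunits Orc6, Orc1 and Orc2 differed by 1.71, 1.34 and 1.25, and a further probe set of Orc1 gave 2.32.

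All 8 origin firing genes rose, with a median of 1.63. Gins1, a GINS subunit, read 827, 733, 590, 778 and 668 in 2BE spleens, against 128, 154, 174, 200 and 162 in vehicle spleens. Cdc45, which completes the active helicase, read 824, 697, 588, 756 and 624 in 2BE spleens, against 128, 183, 156, 188 and 150 in vehicle spleens. Both genes had 2BE arrays well clear of the vehicle arrays, with log2 differences of 2.14 (SE 0.24) for Gins1 and 2.11 (SE 0.23) for Cdc45. Mcm10, which helps to activate the helicase, differed by 1.97 (SE 0.26), and its other probe sets gave 0.30 and 0.90. The GINS subunits were uneven: Gins2 differed by 1.44, Gins4 by 1.16 and Gins3 by 1.07. The kinase pair was uneven too, with Dbf4, the regulatory subunit, at 1.83 (SE 0.19) and Cdc7, the catalytic subunit, at 0.98 (SE 0.13).

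The genes of deoxynucleotide supply and S phase entry had the highest role medians, 2.10 and 2.14 on the log2 scale over 4 genes each. Rrm2, the small subunit of ribonucleotide reductase, read 14023, 15528, 13160, 13654 and 12237 in 2BE spleens, against 1172, 2961, 3125, 3506 and 2720 in vehicle spleens. Vehicle replicate 1 lay far below the other vehicle arrays, and no 2BE array came near any of them. The log2 difference was 2.43 (SE 0.27, limma adjusted p = 5.4e-07), and 2.16 without that array. Tk1, thymidine kinase of the salvage route, read 2893, 2923, 2236, 2574 and 2357 in 2BE spleens, against 428, 551, 496, 576 and 544 in vehicle spleens. Its arms were tight and apart, with a log2 difference of 2.32 (SE 0.23). Rrm1, the large reductase subunit, differed by 1.89 and Tyms, thymidylate synthase, by 1.86.

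Ccne2, a cyclin E, gave the largest difference of the 45 genes. It read 1904, 2175, 1839, 1782 and 1414 in 2BE spleens, against 86.2, 227, 243, 261 and 195 in vehicle spleens. Every 2BE array lay far above every vehicle array, and vehicle replicate 1 was the lowest. The log2 difference was 3.25 (SE 0.32, limma adjusted p = 1.7e-07), and 2.97 without that array. Ccne1, the other cyclin E, read 2058, 1799, 1652, 1424 and 1604 in 2BE spleens, against 315, 382, 381, 574 and 407 in vehicle spleens, a log2 difference of 2.07 (SE 0.24). The activating factor E2f2 read 4024, 4781, 4231, 4095 and 3108 in 2BE spleens, against 596, 987, 897, 973 and 925 in vehicle spleens. E2f1, of the same class, read 616, 592, 544, 522 and 470 in 2BE spleens, against 167, 187, 172, 181 and 186 in vehicle spleens. Both factors had separate arms, with log2 differences of 2.22 (SE 0.19) for E2f2, or 2.08 without vehicle replicate 1, and 1.61 (SE 0.19) for E2f1.

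All 7 clamp, loader and single-strand binding genes rose, with a median of 1.14, as did Lig1, Fen1 and Chaf1b. Rfc4, a clamp loader subunit, read 1678, 1539, 1183, 1638 and 1328 in 2BE spleens, against 266, 391, 330, 377 and 344 in vehicle spleens. Pcna, the clamp, read 19154, 18603, 16473, 18574 and 15728 in 2BE spleens, against 5207, 6678, 6813, 7587 and 6425 in vehicle spleens. Neither gene's arms overlapped, and the log2 differences were 2.10 (SE 0.23) for Rfc4 and 1.44 (SE 0.15) for Pcna. The other loader subunits Rfc3, Rfc5 and Rfc2 differed by 1.14, 1.13 and 0.37 (SE 0.17, 0.17 and 0.08). The single-strand binding subunits Rpa2 and Rpa1 differed by 1.32 (SE 0.18) and 0.63 (SE 0.11). Lig1, the ligase that seals Okazaki fragments, read 3924, 3636, 3071, 3393 and 3207 in 2BE spleens, against 679, 959, 916, 1048 and 961 in vehicle spleens, a log2 difference of 1.93 (SE 0.24). Fen1, the flap nuclease that acts before it, differed by 1.43 (SE 0.15) and by 2.16 on its other probe set. Chaf1b, a subunit of the chromatin assembly factor behind the fork, read 497, 463, 350, 446 and 484 in 2BE spleens, against 109, 149, 108, 156 and 136 in vehicle spleens. Its log2 difference was 1.77 (SE 0.22), while its other probe set gave 0.22 (SE 0.07).

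All 8 polymerase and primase genes rose, with a median of 1.59. Prim1, the catalytic primase subunit, read 2320, 2206, 1709, 2103 and 1840 in 2BE spleens, against 501, 557, 496, 604 and 532 in vehicle spleens, a log2 difference of 1.91 (SE 0.20). Pola1 and Prim2 of the same complex differed by 1.76 and 1.64, and Pola2 by 1.15. Pole and Pole2, the catalytic and accessory subunits of polymerase epsilon, differed by 1.68 (SE 0.21) and 1.54 (SE 0.21). Pold1, the catalytic subunit of polymerase delta, read 1300, 1165, 1313, 1309 and 1236 in 2BE spleens, against 1022, 1072, 1041, 1092 and 1119 in vehicle spleens. Those arms were close but did not overlap, and Pold1 had the smallest difference of the 45 genes, 0.24 (SE 0.09, limma adjusted p = 0.03); its array values are given because of that. Leaving out vehicle replicate 1 gave 0.23 with an adjusted p of 0.062, and leaving out vehicle replicate 3 or 2BE replicate 1, 3 or 4 also ended the call. Its other probe set gave 0.40. Pold2, the accessory subunit, differed by 0.61 (SE 0.13, adjusted p = 0.00048). The remaining subunits, named after their values were seen, were Pold3 at 0.81 and Pold4 at -1.35 for delta, and Pole3 at 1.19 and Pole4 at -0.16 for epsilon. The Pole4 call (adjusted p = 0.025) was lost in 7 of 18 alternatives, and its value changed sign when all probe sets of a gene were averaged, to 0.037.

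**Figure D3:**
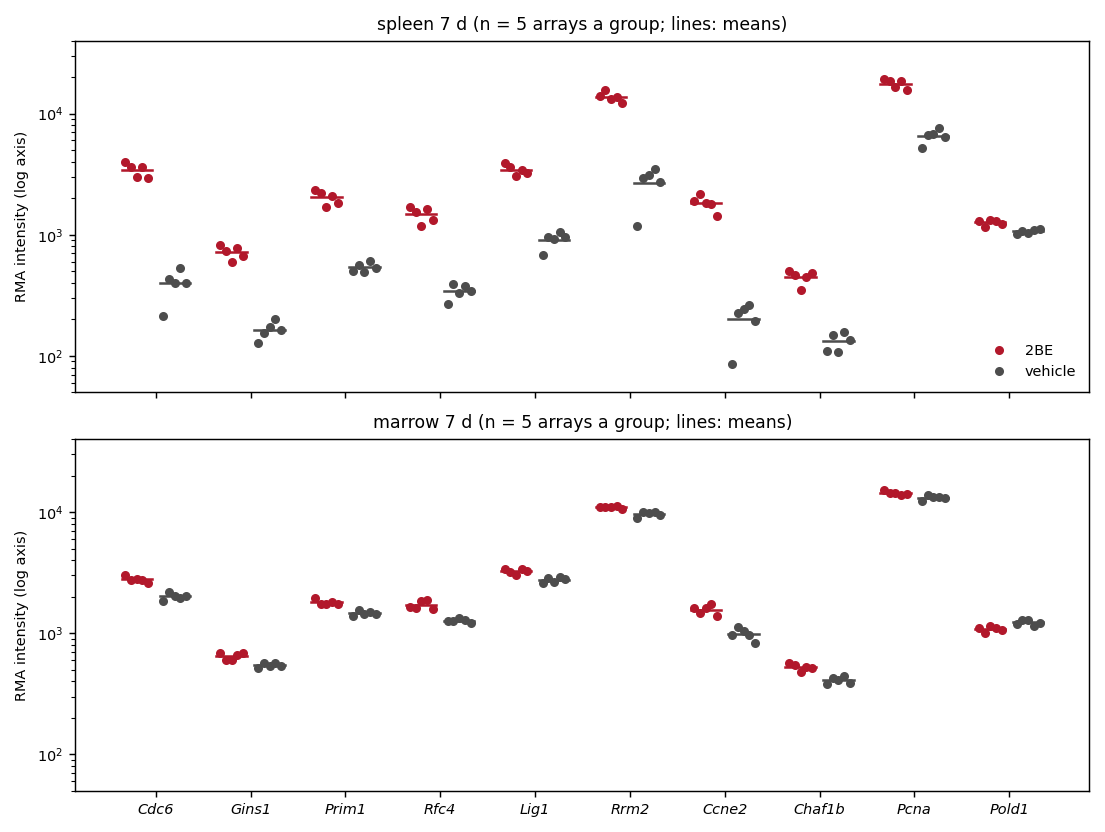
RMA intensities (log axis) on each array for the gene of each role with the largest change in the spleen at 7 d, with Pcna and with Pold1, which had the smallest change. The upper panel shows the spleen at 7 d and the lower panel the bone marrow at 7 d (5 2BE arrays left of 5 vehicle arrays for each gene, lines at the means). For Cdc6 the 2BE spleens read 2940 to 3995 and the vehicle spleens 215 to 532.

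In all, 40 of the 45 genes rose at least 2-fold, 9 of them at least 4-fold, and 5 rose less than 2-fold: Pold1, Rfc2, Pold2, Rpa1 and Cdc7. Among all genes ranked by their difference in the spleen at 7 d, the median replication gene stood at percentile 97.5 and the lowest, Pold1, at 73.2. Of 98 probe sets for the 45 genes, 98 had a positive difference and 97 were called higher, with adjustment over all probe sets. Without vehicle replicate 1 the median difference was 1.53 and 44 genes were called.

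Since these genes moved together in the spleen at 7 d, their promoters are shown with the letters of the E2F site. RefSeq promoter windows (GRCm38.p6, 250 bases before to 50 after each start) were found for 37 of the 45 genes, in 45 windows, and not for Ccne2, Prim2, Rfc2, Gins1, Pole, Gins2, Mcm4 and Gins4. The E2F octamers searched were TTTCCCGC, TTTCGCGC, TTTGCCGC and TTTGGCGC on both strands, and matches on opposite strands can overlap. They were found in 14 of the 45 windows (31.1%), from 14 genes, against 2.26% of all 32851 windows of the same length and 2.85% of the 21262 windows of protein-coding genes. CCAAT, the box bound by the factor NF-Y, was in 53.3% of the 45 windows and 37.4% of all windows. The cell cycle homology element TTTGAA was in 20% of the 45 windows and 17.9% of all windows. The median G and C content was 57.7% in the 45 windows, 52.7% in all windows and 56.3% in protein-coding windows. The 14 genes with an octamer had a median log2 difference of 1.55 in the spleen at 7 d and the 23 without it 1.72. A match is a run of letters, not a shown binding site.

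Windows are printed in lower case with E2F octamers in capitals, for Cdc6 (chr11:98907901-98908200, plus strand) and Rrm2 (chr12:24708004-24708303, plus strand), the largest changes among genes with a window, for Mcm5 (chr8:75109259-75109558, plus strand) and Mcm6 (chr1:128359656-128359955, minus strand), helicase subunits with several matches, and for Pold1 (chr7:44548766-44549065, minus strand), the smallest change.
Cdc6: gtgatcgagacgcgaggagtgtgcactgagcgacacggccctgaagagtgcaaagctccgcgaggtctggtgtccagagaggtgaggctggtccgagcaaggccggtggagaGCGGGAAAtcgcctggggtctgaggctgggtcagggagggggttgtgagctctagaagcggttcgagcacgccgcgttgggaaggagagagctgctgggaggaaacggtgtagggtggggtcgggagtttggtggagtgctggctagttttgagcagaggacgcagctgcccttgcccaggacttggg
Rrm2: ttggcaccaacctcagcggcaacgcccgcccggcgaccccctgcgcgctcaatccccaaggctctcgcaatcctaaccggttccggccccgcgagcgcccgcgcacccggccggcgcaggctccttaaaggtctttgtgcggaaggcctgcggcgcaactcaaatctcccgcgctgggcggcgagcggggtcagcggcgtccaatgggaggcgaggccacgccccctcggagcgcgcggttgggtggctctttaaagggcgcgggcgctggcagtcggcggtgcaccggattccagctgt
Mcm5: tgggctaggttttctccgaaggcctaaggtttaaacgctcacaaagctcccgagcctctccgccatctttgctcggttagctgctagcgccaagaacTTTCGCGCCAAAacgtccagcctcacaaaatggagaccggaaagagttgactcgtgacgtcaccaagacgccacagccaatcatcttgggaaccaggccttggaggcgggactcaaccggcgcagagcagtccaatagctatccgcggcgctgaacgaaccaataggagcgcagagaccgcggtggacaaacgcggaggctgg
Mcm6: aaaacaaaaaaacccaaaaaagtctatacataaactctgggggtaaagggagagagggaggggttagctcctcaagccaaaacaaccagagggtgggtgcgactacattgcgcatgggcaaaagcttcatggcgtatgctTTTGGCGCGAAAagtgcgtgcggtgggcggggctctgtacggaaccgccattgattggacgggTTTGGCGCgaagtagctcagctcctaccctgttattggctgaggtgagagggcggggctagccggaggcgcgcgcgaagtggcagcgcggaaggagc
Pold1: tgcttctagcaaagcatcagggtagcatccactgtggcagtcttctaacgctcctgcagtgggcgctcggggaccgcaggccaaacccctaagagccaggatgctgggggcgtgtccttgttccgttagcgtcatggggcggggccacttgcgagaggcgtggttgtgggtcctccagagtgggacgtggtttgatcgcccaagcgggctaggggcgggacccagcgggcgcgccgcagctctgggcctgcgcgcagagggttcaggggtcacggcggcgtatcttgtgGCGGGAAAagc

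The Cdc6 octamer began 138 bases before the start and that of Pold1 39 bases after it, while the Rrm2 window held a CCAAT box and none of the octamers. Mcm5 had an overlapping pair of octamers at 153 and 149 bases before the start. Mcm6 had an overlapping pair at 110 and 106 bases before it and a further octamer at 47.

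Other genes of the cell cycle were described from lists chosen by function. All 21 mitosis genes rose in the spleen at 7 d (32.4% of all genes rose there), with a median of 2.58. They were led by Cenpf (3.01), a kinetochore protein, Kif11 (2.88), a spindle motor, and Ccnb2 (2.84), a mitotic cyclin. The proliferation marker Mki67 differed by 2.38 (SE 0.25). Of 26 further S phase control and E2F target genes 25 rose and 1 fell, with a median of 1.77. E2f8 and E2f7, repressors of the E2F family, differed by 3.00 and 2.92, Ccna2, the S phase cyclin, by 2.70, and Gmnn, the inhibitor of Cdt1, by 1.91. The maintenance methyltransferase Dnmt1 differed by 1.16, and the gene that fell, named after its value was seen, was the checkpoint kinase Atr (-0.44). Of 28 other fork and licensing genes 23 rose and 2 fell, led by Clspn (2.46), a fork checkpoint mediator, and Dscc1 (2.27), of an alternative clamp loader. Pold4 and Pole4 were the genes that fell.

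General nucleotide synthesis moved less. Of 16 genes 12 rose and 1 fell, with a median of 0.44, led by Dut (1.71), which clears dUTP, and Dck (1.35), a salvage kinase. Of 17 brakes on S phase entry 8 rose and 7 fell, with a median of 0.21. In this set 11712 of all 18193 genes were called, 50.3% of them higher and the rest lower. Gadd45a (2.48), the kinase inhibitors Cdkn2c (1.98) and Cdkn2d (1.74), and Rb1 (1.35), which holds E2F factors in check, were the largest of these. Cdkn1a, the p53-responsive kinase inhibitor, was not called (0.21, SE 0.11, limma adjusted p = 0.091).

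Cell type markers moved in the same spleens, where 11712 of all 18193 genes were called, 50.3% of them higher and the rest lower. All 15 measured erythroid markers rose, with a median log2 difference of 2.91, and their summed intensity ran from 113850 to 138590 in 2BE spleens and from 11721 to 32204 in vehicle spleens. Tfrc, the transferrin receptor, differed by 2.59 (SE 0.26) and Alas2, the first enzyme of haem synthesis in red cells, by 1.12 (SE 0.16). All 8 B cell markers fell, with a median of -1.63 and sums of 7272 to 19042 in 2BE spleens against 35664 to 42393 in vehicle spleens. B cell precursor sums were lower too, 1389 to 2543 in 2BE spleens against 3400 to 3878 in vehicle spleens. T cell markers fell in 5 of 6 (1 rose), with sums of 1786 to 3217 in 2BE spleens against 5662 to 6678 in vehicle spleens. NK cell markers fell in 5 of 5 (1090 to 1650 in 2BE spleens against 3309 to 5173 in vehicle spleens) and plasma cell markers in 6 of 6 (13954 to 17869 in 2BE spleens against 28797 to 33599 in vehicle spleens). Macrophage markers fell in 6 of 10 (1 rose), with sums of 15470 to 21102 in 2BE spleens against 23683 to 28812 in vehicle spleens, and megakaryocyte and platelet markers in 3 of 5 (3983 to 5068 in 2BE spleens against 8134 to 11551 in vehicle spleens). Stem and progenitor cell markers fell in 4 of 7 (1 rose). Their means on the log2 scale lay apart, 8.15 to 8.41 in 2BE spleens against 8.54 to 8.60 in vehicle spleens, while their sums overlapped (2962 to 3481 in 2BE spleens against 3057 to 3413 in vehicle spleens). Pancreatic acinar markers rose in 2 of 3 (1280 to 1473 in 2BE spleens against 640 to 710 in vehicle spleens), hepatocyte markers rose in 3 of 7, and adipocyte markers fell in 2 of 4 (223 to 291 in 2BE spleens against 276 to 7331 in vehicle spleens). Of 10 markers of neutrophils and their precursors 0 were called in limma or had an unadjusted p under 0.05, in a fit whose spread also comes from the spleen arrays at 4 h. With the spread from the arrays at 7 d alone 3 were called higher, named after their values were seen: Mpo (0.83, adjusted p = 3.3e-05), Elane (0.62) and Prtn3 (0.66), which had separate arms. RMA values are never 0, so none of these markers can be said to be absent. Without vehicle replicate 1 all 15 erythroid markers (median 2.65) and all 21 mitosis genes (median 2.37) were still called higher. The part of a change in cell makeup in the rise of the replication genes was not tested.

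In the bone marrow at 7 d 30 of the 45 replication genes rose, 1 fell and 14 were not called. The median log2 difference was 0.23, and 40 had an unadjusted p under 0.05. All 4 S phase entry genes were higher. Ccne2 read 1625, 1472, 1624, 1739 and 1386 in 2BE marrow, against 960, 1123, 1046, 960 and 829.4 in vehicle marrow. The arms did not overlap, and the log2 difference was 0.68 (SE 0.08, limma adjusted p = 8e-05). E2f1 read 555, 443, 491, 521 and 425 in 2BE marrow, against 407, 398, 382, 374 and 377 in vehicle marrow, a difference of 0.32 (SE 0.07). Ccne1 differed by 0.29 and E2f2 by 0.24 (adjusted p = 0.032). The E2f2 call was lost without vehicle replicate 1, 3 or 4 or 2BE replicate 2 or 4, each left out alone (adjusted p up to 0.077).

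Of the licensing genes 8 of 11 were higher. Cdc6 read 3030, 2737, 2808, 2776 and 2589 in 2BE marrow, against 1856, 2178, 2043, 1955 and 2038 in vehicle marrow. Orc6 read 1024, 964, 923, 991 and 905 in 2BE marrow, against 666, 738, 695, 707 and 654 in vehicle marrow. Both differed by 0.47, with an SE of 0.06 for Cdc6 and 0.05 for Orc6, and their arms lay apart. Mcm2 was 2725 to 3009 in 2BE marrow and 2383 to 2554 in vehicle marrow (0.21, SE 0.05, adjusted p = 0.0091), while Mcm6 (0.09), Mcm7 (0.11) and Orc1 (-0.01) were not called. Further probe sets of Mcm6 (0.39 and 0.20) and Orc1 (0.40) were. Firing genes were higher in 6 of 8, led by Gins4, which read 1053, 996, 1003, 1018 and 1006 in 2BE marrow, against 750, 844, 749, 848 and 795 in vehicle marrow (0.35, SE 0.05).

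Of the clamp, loader and binding genes 2 of 7 were higher in marrow, Rfc4 and Rpa1. Rfc4 read 1652, 1611, 1844, 1876 and 1597 in 2BE marrow, against 1270, 1263, 1329, 1279 and 1221 in vehicle marrow (0.43, SE 0.06). Pcna ran from 13963 to 15143 in 2BE marrow and from 12361 to 13781 in vehicle marrow, without overlap, and was not called (0.13, SE 0.05, limma adjusted p = 0.076). Deoxynucleotide supply was higher in 3 of 4 genes. Tk1 read 2507, 2387, 2435, 2459 and 2297 in 2BE marrow, against 1737, 1929, 1731, 1871 and 1869 in vehicle marrow (0.40, SE 0.05). Rrm2 ran from 10709 to 11205 in 2BE marrow and from 8946 to 9995 in vehicle marrow (0.20, SE 0.05). Chaf1b read 564, 542, 481, 528 and 512 in 2BE marrow, against 382, 429, 409, 445 and 390 in vehicle marrow (0.35, SE 0.06). Of the weaker calls in marrow, those of Mcm3 and Mcm5 were lost in 9 of 17 alternatives each, and those of Pola1 and Rpa1 in 8 of 17 each. Of the genes not called, Pole was gained in 7 of 17 alternatives, Rpa2 in 6 and Pcna in 3. With the mean of a gene's probe sets Rfc2, Rfc3 and Rpa2 were called higher, while Mcm10, Pola1, Pola2 and Pole2 were lost. Of 98 probe sets for the 45 genes, 54 were called higher and 2 lower in marrow, with adjustment over all probe sets.

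Of the polymerase and primase genes 5 rose and 1 fell in marrow. The gene that fell was Pold1, the gene with the smallest change in the spleen: it read 1097, 1003, 1145, 1098 and 1056 in 2BE marrow, against 1200, 1283, 1292, 1154 and 1214 in vehicle marrow. The arms did not overlap, the log2 difference was -0.19 (SE 0.05, limma adjusted p = 0.026), and the other probe set gave -0.26. The call was lost without vehicle replicate 2 or 3 or 2BE replicate 2 (adjusted p = 0.057, 0.07 and 0.056). Pold4 of the same complex fell too (-0.46, adjusted p = 0.00027). In marrow 9.4% of all genes rose and 10.7% fell. Of the lists, 19 of 21 mitosis genes (median 0.27) and 18 of 26 S phase control and E2F target genes (median 0.22) rose. Of 28 other fork genes 13 rose and 1 fell. Brakes on S phase entry split evenly, with 4 higher and 4 lower of 17, among them Gadd45a (0.56) and Btg1 (-0.47). The marrow's erythroid markers rose in 14 of 15, with a median of 0.47 and sums of 99245 to 108600 in 2BE marrow against 70008 to 88774 in vehicle marrow. Its B cell and B cell precursor markers fell in 8 of 8 and 8 of 8, with medians of -1.20 and -1.21. Their summed intensity ran from 2209 to 3651 for B cells and from 2333 to 4179 for precursors in 2BE marrow, against 7313 to 9062 for B cells and 6946 to 9081 for precursors in vehicle marrow. Stem and progenitor cell markers fell in 2 of 7 and had separate sums (3977 to 5242 in 2BE marrow against 6022 to 6822 in vehicle marrow). Plasma cell markers fell in 2 of 6 (5863 to 6809 in 2BE marrow against 7090 to 8573 in vehicle marrow). Megakaryocyte and platelet sums also lay apart (21765 to 27115 in 2BE marrow against 27447 to 30618 in vehicle marrow), with 0 of 5 markers called in limma and 2 at an unadjusted p under 0.05. Macrophage markers fell in 3 of 10 and neutrophil markers in 2 of 10, and 1 of 3 acinar markers rose (1006 to 1086 in 2BE marrow against 880 to 966 in vehicle marrow). The part of these cell types in the marrow result was not tested.

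The response of the spleen at 7 d exceeded that of the marrow for all 45 genes in a direct test of the difference between tissues (44.9% of all genes passed in either direction, 19.9% with the spleen higher). The median difference between the responses was 1.36 on the log2 scale. It was largest for Cdc6, at 2.70 (SE 0.19, limma adjusted p = 2.5e-12), and 0.43 (SE 0.08) for Pold1. Against the liver at 7 d the spleen response was larger for all 45 genes too (57% of all genes in either direction, 27.4% with the spleen higher), with a median of 1.56. These comparisons share the spleen arrays. Of the 10 genes with the largest change in the spleen and the 10 in marrow, 5 were on both lists: Ccne2, Cdc6, Tk1, Rfc4 and Mcm10.

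**Figure D4:**
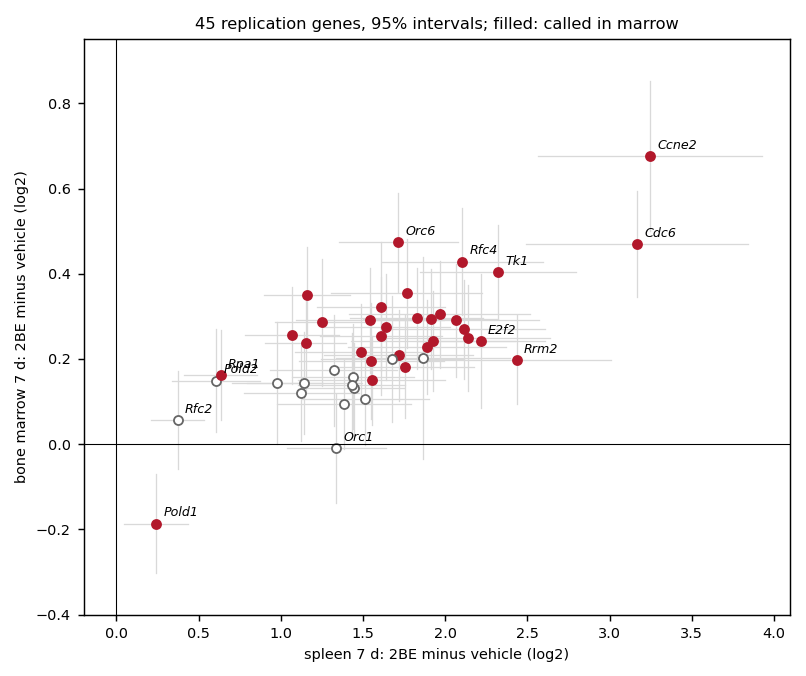
Log2 difference, 2BE minus vehicle, of the 45 genes in the spleen at 7 d (horizontal axis) and in the bone marrow at 7 d (vertical axis), with 95% intervals and different scales on the axes. Filled points were called in marrow; Ccne2 stands at 3.25 and 0.68, and Pold1 at 0.24 and -0.19.

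At 4 h the spleen showed 0 of 45 genes past the limma test, 1 had an unadjusted p under 0.05, and 41 had a positive difference. The median was 0.21 and the range -0.15 to 0.42. Pcna read 7719, 6151, 10078 and 10201 in 2BE spleens, against 8553, 6343, 10353 and 6622 in vehicle spleens. Rrm2 read 4729, 4179, 7519 and 7251 in 2BE spleens, against 5926, 3060, 7875 and 3818 in vehicle spleens. In both arms some arrays were high and others low, and the arms overlapped for each of these genes. Mcm2 ran from 1119 to 2467 in 2BE spleens and from 970 to 2173 in vehicle spleens. Ccne1 ran from 537 to 1042 in 2BE spleens and from 351 to 1037 in vehicle spleens, and E2f1 from 197 to 333 in 2BE spleens and from 144 to 347 in vehicle spleens. Their arms overlapped too. The median SE was 0.22, and the highest upper 95% bound of a difference was 1.18.

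Within each arm these arrays stood in the same order on the replication genes and on the erythroid markers. The part of cell makeup in their spread was not tested. The 45 genes averaged 9.52, 9.08, 9.97 and 10.01 on the log2 scale in 2BE spleens, and 9.69, 9.02, 10.01 and 9.11 in vehicle spleens. Erythroid markers averaged 10.88, 10.72, 11.37 and 11.58 in 2BE spleens, and 11.19, 10.67, 11.80 and 10.72 in vehicle spleens. Vehicle replicate 3 was the highest vehicle array on both, and its neutrophil markers averaged 13.24, against 9.69 to 11.33 in the other vehicle arrays and 10.35 to 11.40 in 2BE arrays. In limma 0 of the 15 erythroid and 10 neutrophil markers were called at 4 h, and 2 and 1 of them had an unadjusted p under 0.05. NK cell sums lay apart at 4 h (1534.5 to 1654 in 2BE spleens against 1886 to 3028 in vehicle spleens). Adipocyte sums did too (841 to 7162 in 2BE spleens against 180 to 512 in vehicle spleens). Without vehicle replicate 3 the median of the 45 genes was 0.41 and 0 were called. Without 2BE replicate 2, 1 was called, Pold2 (0.47, adjusted p = 0.041).

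**Figure D5:**
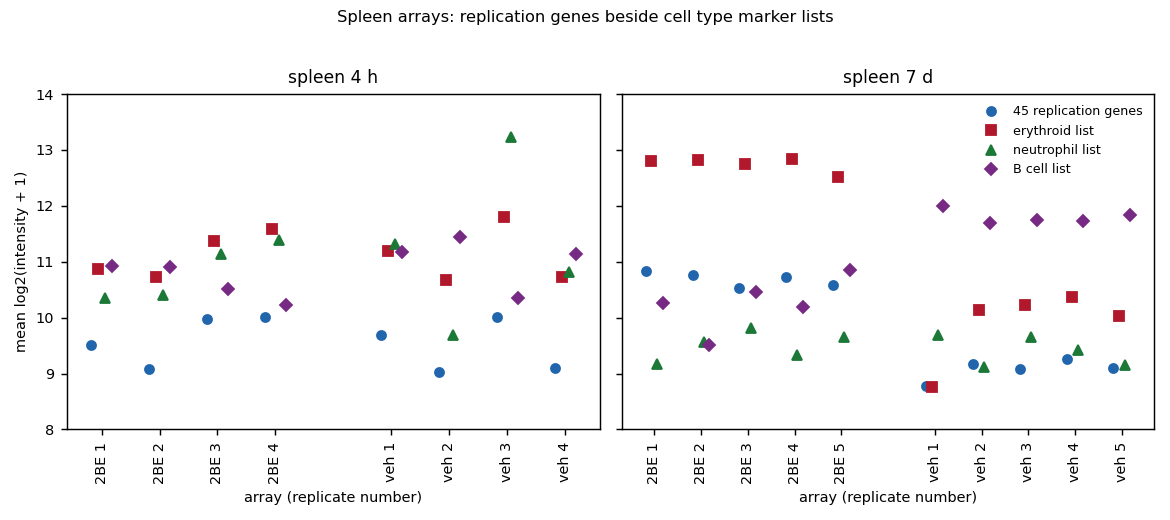
Mean log2(intensity + 1) on each spleen array for the 45 replication genes and for the marker lists of erythroid cells, neutrophils and B cells, at 4 h (left) and 7 d (right), with 2BE arrays left of vehicle arrays (veh) in each panel. At 4 h vehicle replicate 3 is highest on the neutrophil list at 13.24, and at 7 d vehicle replicate 1 is lowest on the erythroid list at 8.75.

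The spleen response at 7 d was larger than at 4 h for 44 of 45 genes in a direct test of the difference between times (51.3% of all genes in either direction, 25.6% with 7 d higher), with a median difference of 1.39. Ccne2 differed by 2.89 (SE 0.49, limma adjusted p = 0.00014) and Cdc6 by 2.74 (SE 0.48). Pold2 was the exception (0.29, SE 0.19, adjusted p = 0.21), and the call of Pold1 (0.34, SE 0.14, adjusted p = 0.047) was lost in 13 of 25 alternatives, all 13 of them without 1 array. Of the 17 brakes on S phase entry 2 rose and 1 fell in the spleen at 4 h, where 5.16% of all genes were called. Cdkn1a differed by 1.80 and Gadd45g, a stress-induced growth arrest protein, by 0.57, while Ccng2, a cyclin of arrested cells, fell (-0.51). Of the other lists Skp2 (1.31), which marks kinase inhibitors for destruction, Ctps (0.69), of CTP synthesis, and Top1 (0.34), which relaxes DNA, rose, and the Top1 call (adjusted p = 0.037) was lost in 7 of 16 alternatives.

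In the liver at 4 h the replication genes stayed near a median of 0.00058 on the log2 scale, and 11 had an unadjusted p under 0.05. Mcm10 read 1193, 804, 668 and 481 in 2BE livers, against 1456, 1943 and 1349 in vehicle livers. Every 2BE array lay below every vehicle array, and Mcm10 was 2.10-fold lower (log2 difference -1.07, SE 0.23, limma adjusted p = 0.012). Its other probe sets gave -0.20 and 0.11, neither of which was called. Gins3 read 46.7, 51.7, 45.3 and 59.0 in 2BE livers, against 62.4, 80.1 and 64.0 in vehicle livers (-0.43, SE 0.11, adjusted p = 0.033), and its other probe set gave 0.02. Chaf1b read 54.1, 63.8, 54.9 and 60.3 in 2BE livers, against 49.9, 46.5 and 39.4 in vehicle livers (0.36, SE 0.08, adjusted p = 0.022), and its other probe set gave -0.03.

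These 3 calls depended on the fit. The sample titles do not state whether replicate numbers pair the liver arrays at 4 h, and the main fit did not pair them. With the number as a block in limma, 2BE replicate 4 has no vehicle partner and adds nothing to the difference. The differences are then those of the fit without that array (Chaf1b 0.34 in both). The called genes under the block were Mcm10 (-0.86, adjusted p = 0.028), Gins3 (-0.51, adjusted p = 0.015) and Cdt1 (-0.53, adjusted p = 0.042). Chaf1b was lost (adjusted p = 0.077). With the spread estimated from the liver arrays at 4 h alone 0 were called, and without vehicle replicate 2 Chaf1b alone was. Gins3 was also lost without 2BE replicate 1, 2 or 3, and Chaf1b without vehicle replicate 3 or 2BE replicate 2 or 4. Pcna ran from 782 to 946 in 2BE livers and from 651 to 725 in vehicle livers, without overlap (0.28, SE 0.08, adjusted p = 0.056). It was called in limma with a pseudocount of 16, the low-value filter or the mean of probe sets (adjusted p = 0.047, 0.042 and 0.049). Rrm2 read 110, 70.2, 143 and 165 in 2BE livers, against 80.8, 81.8 and 35.2 in vehicle livers, with overlap (0.91, SE 0.27, adjusted p = 0.068), and was called without 2BE replicate 2 (1.15, adjusted p = 0.015). Mcm2, Ccne1 and E2f1 differed by 0.04, 0.12 and -0.13 and were not called. Of all genes 3.24% rose and 1.27% fell in this set. Of the brakes on S phase entry 5 of 17 rose: Cdkn1a (2.93), Gadd45g (2.82), Btg2 (2.33), Trp53inp1 (2.26) and, named after its value was seen, Ccng2 (0.92). E2f8 fell (-0.70, adjusted p = 0.043), a call lost in 7 of 15 alternatives. Of the 21 mitosis genes 0 rose and 1 fell, Kif20a (-0.24), whose call was lost in 10 of 14 alternatives, the replicate block among them (adjusted p = 0.15).

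In the liver at 7 d only Mcm6 was called among the 45 genes, 12 of which had an unadjusted p under 0.05. The median log2 difference of the 45 genes was 0.086. Mcm6 read 210, 220, 183, 185 and 248 in 2BE livers, against 145, 120, 135 and 143 in vehicle livers. The arms lay apart, with Mcm6 1.53-fold higher (log2 difference 0.62, SE 0.13, limma adjusted p = 0.040). The call was lost without any vehicle array (1, 2, 3 or 4) and without 2BE replicate 2, 4 or 5, each left out alone (adjusted p up to 0.15), and the other probe sets gave 0.29 and 0.15. Rrm2 read 172, 171, 158, 207 and 177 in 2BE livers, against 125, 107, 106 and 120 in vehicle livers, with no overlap. It was not called (0.62, SE 0.24, adjusted p = 0.30) in the main fit, whose spread also comes from the liver arrays at 4 h. With the spread from the arrays at 7 d alone Rrm2 was called (limma adjusted p = 0.0099). Pcna ran from 1170 to 1277 in 2BE livers and from 966 to 1171 in vehicle livers (0.17, adjusted p = 0.36). Mcm2, Ccne1 and E2f1 differed by 0.04, 0.19 and -0.10. Of the lists, 0 genes of the mitosis, S phase control, fork and nucleotide lists were called in limma (1, 5, 3 and 4 had an unadjusted p under 0.05), and Gadd45g (1.97, adjusted p = 0.046) was the brake that rose, a call lost in 11 of 17 alternatives (adjusted p up to 0.145). The S phase control list had separate means on the log2 scale, 6.44 to 6.52 in 2BE livers against 6.29 to 6.35 in vehicle livers. Macrophage markers rose in 2 of 10, with a median of 0.46 (0.506% of all genes rose there). Their sums ran from 5632 to 7688 in 2BE livers against 4508 to 5114 in vehicle livers. Erythroid means lay apart (6.23 to 6.27 in 2BE livers against 6.11 to 6.18 in vehicle livers), while erythroid sums overlapped. Adipocyte sums lay apart (293 to 336 in 2BE livers against 236 to 266 in vehicle livers). The part of these cell types in the liver values was not tested.

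The liver responses at 7 d and 4 h gave 0 of 45 calls in the direct test of their difference in limma (0.269% of all genes in either direction), and 7 had an unadjusted p under 0.05. At 4 h the spleen and liver responses also gave 0 calls (1.78% of all genes), with 2 genes at an unadjusted p under 0.05. A p that misses the threshold does not show that the responses were equal: the median SE of the difference was 0.13 between the liver times and 0.34 between the tissues at 4 h.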

How the data were processed

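The values are intensities per probe set, deposited by the authors in 1 table of 45101 probe sets by 44 arrays and made with RMA, per the submitters' processing notes, with no version given in the sources used here. They lay on a linear scale from 6.16 to 47797.8. Of these probe sets 64 controls were left out, and the platform annotation gave 1 symbol for 34945 of the other 45037, several for 932 and none for 9160. Each of 18193 genes was represented by its probe set with the highest mean, and values were analysed as log2(intensity + 1). The tests were those of limma (version 3.58.1, under R 4.3.3): lmFit with a mean for each group, on the arrays of 1 tissue or, between tissues, of 1 time point, then eBayes. They were two-sided with Benjamini-Hochberg adjustment over all genes, and were tested on simulated data. RMA shrinks differences of dim probe sets and its quantile step assumes similar distributions across arrays. The members and the lists of other genes were chosen with earlier results of these data known. Values of every array are given for up to 8 members a set with the largest change among those called with separate arms, for the largest of each role in the spleen at 7 d and for Pcna, Mcm2, Rrm2, Ccne1 and E2f1. Of each other list up to 4 genes a set with the largest change among those called were named, and always Mki67, Cdkn1a, Gmnn, Ccna2, Dnmt1, Tfrc and Alas2. Replicate numbers recur in both arms. Deviations from group means of same-numbered liver arrays at 4 h correlated at 0.132, 0.282 and 0.146. Correlations between differently numbered arrays were not computed, so these values cannot show whether the numbers pair arrays. The main fits took no set as paired, and the replicate block was an alternative. Some correlations in the other sets were below 0.1. The sample titles state no pairing. In marrow the correlations were -0.0881, 0.164, 0.137, 0.16 and 0.126, and in the spleen at 4 h 0.0666, 0.543, 0.339 and -0.381. Whether tissues with the same number came from 1 mouse is not stated. Alternatives were a pseudocount of 16, a filter on low values, quantile normalization within a set, only the groups compared, eBayes with trend and robust options, array weights, the mean of a gene's probe sets, the replicate block, a random block shared by tissues, and leaving out each array. Promoter sequences came from RefSeq.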

Additional observations from a re-analysis of the deposited data

Results flagged for a closer look

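Of 93 groups of values looked at for an array far from the rest of its group, 6 had one, and chance flags about 1 in 20. In the spleen at 7 d, vehicle replicate 1 was far below the other vehicle arrays for Ccne2 (86.2, against 195 to 261), Rrm2 (1172, against 2720 to 3506) and E2f2 (596, against 897 to 987). In the marrow at 7 d, vehicle replicate 1 was low for Mcm2 (2383, against 2514 to 2554). In the liver, 2BE replicate 4 was high for Pcna at 4 h (945.5, against 782 to 804), and vehicle replicate 3 was high for Mcm2 at 7 d (92.7, against 78.2 to 80.3).

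The response to 2BE differed between groups by a limma test of the difference itself. Between 7 d and 4 h in the spleen it differed for 44 members (51.3% of all genes). Between the spleen and the marrow at 7 d it differed for 45 members (44.9% of all genes). Between the spleen and the liver at 7 d it differed for 45 members (57% of all genes).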

How the results depend on the processing

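At 7 d the spleen count of 45 members held under all 8 other settings and was 44 to 45 when an array was left out, with Pold1 the gene lost. In marrow the count of 31 ran from 27 to 36 under 7 other settings and from 25 to 32 without an array. The liver counts rest on the fit. At 4 h the 3 calls fell to 0 with only the groups compared. The count rose to 4 with a pseudocount of 16 or the low-value filter, with Pcna added. It ran from 1 to 3 without an array, with 1 left without vehicle replicate 2. At 7 d the 1 call became 0 with further quantile normalization, 2 with only the groups compared (Rrm2 added) and 4 with array weights (Mcm4, Gins1 and Rpa1 added), and ran from 0 to 1 without an array. The low-value filter left 34 of the 45 members to test in the liver. In the spleen at 4 h the count of 0 ran from 0 to 1 without an array.

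Between liver times 0 calls ran from 0 to 1 (Mcm10, without 2BE replicate 1 at 4 h), and between spleen times 44 ran from 43 to 44. Between tissues at 7 d, 45 became 44 with the low-value filter, which left 44 members to test, and between tissues at 4 h the count stayed 0 in all settings. The replicate block pairs same-numbered arrays within every set. In the liver the unmatched 2BE array (replicate 4 at 4 h, replicate 5 at 7 d) then adds nothing to the difference. The block gave 3 and 0 calls for the liver and spleen at 4 h. At 7 d it gave 1, 27 and 45 calls for the liver, marrow and spleen. In marrow Mcm3, Mcm5, Pola1 and Rpa1 were lost. The Pole4 difference in marrow ran from -0.014 to 0.091 without an array, turning negative without 2BE replicate 1, and that in the spleen at 7 d turned to 0.037 with the mean of all probe sets. Quantile normalization moved the share of rises among all called genes to 60.8%, against 71.9%, in the liver at 4 h, and to 55.2%, against 67.6%, in the liver at 7 d. In the spleen at 7 d the low-value filter, which leaves 10997 genes, moved that share to 36.2%, against 50.3%, and the median difference of all genes to -0.16, against 0.05, while the members' median was 1.61 in both. The cause of these changes was not tested. A random block shared by tissues changed no count.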
